A study of Mus musculus with 2 samples.

Results

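Excitation-contraction coupling depends on junctions where the surface membrane lies close to the sarcoplasmic reticulum, the cell's calcium store. There, calcium entering through voltage-gated channels opens ryanodine receptors in the store membrane; such a junction is called a dyad in heart muscle. Junctophilins tether the membranes, triadin and junctin couple the ryanodine receptor to calcium-binding proteins inside the store, small FK506-binding proteins sit on the receptor, and inositol trisphosphate (IP3) receptors are a second kind of release channel, opened by a signalling molecule instead of by calcium entry. Embryonic mouse heart muscle cells still lack the transverse tubules that carry these junctions into the adult cell, so junctions at this stage lie at the cell surface.

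The genes described are 10 dyad, junctional and IP3 receptor genes, chosen by symbol out of 34236 symbols measured. They are Jph1, Jph2, Trdn, Asph, Hrc, Fkbp1a, Fkbp1b, Itpr1, Itpr2 and Itpr3. These genes and the lists set beside them were chosen with earlier results of these data known, so their detected counts are descriptive only. All 10 were found, each as a single row in both tables. RNA sequencing had been done on 2 untreated libraries of whole heart from embryonic day 12.5 mice of a mixed C57BL/6 x 129S6 background, which form 1 group with no mutant, treatment or other stage beside it. Whether the libraries came from separate embryos, litters or pools is not stated, so the spread between them may be technical. An exact two-sided sign-flip test of 2 libraries cannot reach a p below 0.5, so no test was run on differences between them.

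Levels are in FPKM, fragments scaled by transcript length and by the size of the library. Levels of different genes are set side by side on that scale. The files do not give the sequencing depth. FPKM values of replicate 1 added up to 388230 and those of replicate 2 to 382561. An estimate of the worth of a single fragment came from 2828 symbols of very low but nonzero level in both libraries. Their most common ratio of replicate 2 to replicate 1 was 1.32, with 476 symbols near it. Of the fixed markers, 6 of 6 for cardiomyocytes reached 1 FPKM in both libraries, as did 5 of 5 for endothelium, 5 of 5 for mesenchyme, 4 of 4 for epicardium, 4 of 4 for red cells, 3 of 3 for platelets and 4 of 5 for smooth muscle. The libraries therefore hold RNA of cell types besides heart muscle cells, among them endothelium, epicardium and red cells. In such bulk RNA, fewer cells of a type and less RNA per cell cannot be told apart. Levels of the cardiomyocyte markers ran from 4.17 FPKM for Ttn to 4314 FPKM for Actc1. Whether FPKM reads very long and short transcripts evenly was not tested.

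All 10 genes were at 1 FPKM or more in both libraries, a limit reached by 36.2% of all symbols and 52.4% of protein-coding symbols. At a limit of 0.5 FPKM the count is necessarily 10 as well, beside 39.9% of all symbols, and at 5 FPKM it was 6, beside 25.6%. Their mean levels ran from 1.34 to 240 FPKM with a median of 19.4 FPKM, beside a median of 10.2 FPKM over the 12381 symbols detected in both libraries. They fell on both sides of that median, 5 above and 5 below. Above it were Fkbp1a, Jph2, Asph, Hrc and Trdn, and below it Itpr1, Fkbp1b, Jph1, Itpr2 and Itpr3.

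**Figure D1:**
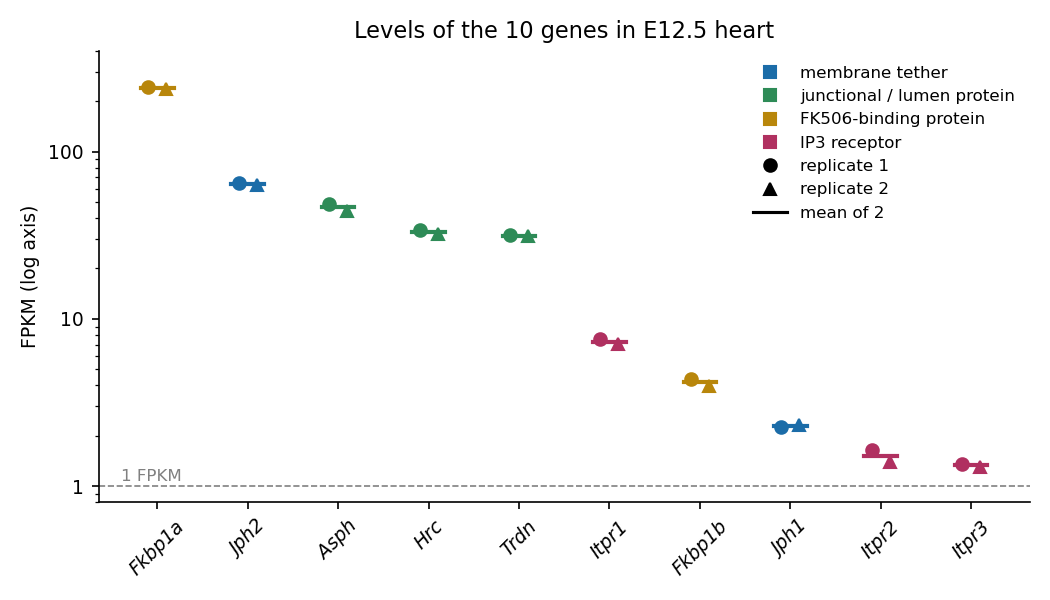
FPKM on a log axis for each of the 10 genes in replicate 1 (circles) and replicate 2 (triangles), with the mean as a bar and colour for the role of the protein. Fkbp1a stands alone at 240 FPKM, 4 genes lie between 31.4 and 64.1 FPKM, and 5 lie between 1.34 and 7.31 FPKM, with nothing between 7.31 and 31.4 FPKM.

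Of the membrane tethers, Jph2 is the junctophilin known from heart muscle and Jph1 the one known from skeletal muscle. Both proteins hold the plasma membrane with repeated MORN motifs and the reticulum membrane with a tail anchor. Jph2 (chromosome 2, 163161978 to 163223729, minus strand, mm9 as in the deposited tables) had 64.8 FPKM in replicate 1 and 63.3 FPKM in replicate 2, higher than 92.8% of detected symbols. Jph1 (chromosome 1, 16987545 to 17087879, minus strand) had 2.27 FPKM in replicate 1 and 2.32 FPKM in replicate 2. The genes lay far apart in both libraries: the FPKM ratio of Jph2 to Jph1 was 28.6 in replicate 1 and 27.3 in replicate 2.

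Jph3 and Jph4, the junctophilins known from neurons, were at 0.0701 ± 0.00923 and 0.282 ± 0.00687 FPKM (SD, n = 2 libraries). Jph2 thus held 96.1% of the summed junctophilin FPKM in replicate 1 and 95.9% in replicate 2, Jph1 held 3.36% and 3.52%, and Jph4 and Jph3 the rest. Since Jph1 marks skeletal muscle in the adult, the skeletal muscle markers are given beside it. The muscle regulators Myod1, Myf5, Myog and Pax7 were at 0.105, 0.0145, 0.466 and 0.00579 FPKM, while Ckm, which heart also expresses, and Actn3 were at 13.1 and 1.16 FPKM. Their summed level was 17.01 FPKM in replicate 1 and 12.7 FPKM in replicate 2, and their part in the Jph1 level was not tested.

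Jph1 and Jph2 are related in sequence, so their longest shared stretch is printed. Neither the read length nor the placing of multiply matching reads is stated. Over 1921 aligned coding bases of the GENCODE M21 transcripts (GRCm38), 65.9% were identical, and no identical run exceeded 35 bases. That run, in capitals, lies in exon 3 of Jph2 (chr2:163375865-163375929, minus strand) and exon 2 of Jph1 (chr1:17091559-17091623, minus strand), shown with 15 bases on each side.
Jph2: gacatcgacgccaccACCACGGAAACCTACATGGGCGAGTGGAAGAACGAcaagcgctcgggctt
Jph1: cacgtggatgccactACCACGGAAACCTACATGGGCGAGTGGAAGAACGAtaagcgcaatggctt

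RNA of the genes for proteins on the inner side of the store membrane lay between 31.4 and 46.3 FPKM on average, with Asph above Hrc and Trdn. Trdn encodes triadin, which links the ryanodine receptor to calsequestrin, and had 31.7 FPKM in replicate 1 and 31.2 FPKM in replicate 2 (chromosome 10, 32803289 to 33196515, plus strand). Hrc, a histidine-rich calcium-binding protein of the store lumen that binds triadin and the calcium pump, had 34.03 and 31.98 FPKM (chromosome 7, 52590660 to 52594343, plus strand). Asph had 48.7 and 44.0 FPKM (chromosome 4, 9375216 to 9596491, minus strand).

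Neighbours in the order of levels were called different where both libraries of 1 gene lay above both of the other and their log2 ratio passed the spread between the libraries. That spread is the 95th percentile of the size of the log2(FPKM + 1) difference between libraries over genes of like level, 0.17 for genes from 20 to 50 FPKM. Hrc and Trdn, at 33.0 ± 1.45 and 31.4 ± 0.297 FPKM, differed by 0.07, within that spread. Asph exceeded Hrc by 0.48 and Trdn by 0.54 on the same scale, beyond it.

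The Asph level cannot be assigned to the junctional protein. The locus is known to encode junctin and junctate, which lie in the reticulum membrane, as well as the enzyme aspartyl beta-hydroxylase, which acts outside muscle too. GENCODE M21 lists 20 transcripts for Asph, 15 of them protein-coding and from 457 to 6694 bases long, and the deposited value is per gene. The row also overlaps that of Clvs1 on the opposite strand by 3623 bases at the 3′ ends, and without strand information reads there cannot be told apart. Clvs1 had 1.64 FPKM in replicate 1 and 3.03 FPKM in replicate 2, far below Asph. The microRNA gene AL773548.1, which overlaps the other end of Asph by 66 bases, was listed at 0 in both libraries. The related genes Asphd1 and Asphd2 were at 0.0715 ± 0.0281 and 1.30 ± 0.0889 FPKM.

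These genes were set against the calsequestrins, the calcium-binding partners in the store lumen. Casq2, the cardiac calsequestrin, had 48.4 FPKM in replicate 1 and 43.4 FPKM in replicate 2. Casq1, the calsequestrin known from skeletal muscle, had 104 FPKM in replicate 1 and 86.7 FPKM in replicate 2, so it and not Casq2 was the higher calsequestrin RNA, above Asph, Hrc and Trdn in both libraries. Its own log2(FPKM + 1) difference between the libraries, -0.26, was beyond the 0.15 limit at its level. The FPKM ratio of Asph to Casq2 was 1.01 in both libraries, a difference within the spread. Trdn stood at 0.654 and 0.720 of Casq2, and Hrc at 0.703 and 0.737, both lower than Casq2 beyond the spread. Hrc was also far below the calcium pump gene Atp2a2, at 0.116 of its FPKM in replicate 1 and 0.124 in replicate 2.

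Of the related pairs within the 10 genes, Fkbp1a and Fkbp1b lay furthest apart. Fkbp1a encodes FKBP12, a prolyl isomerase found in nearly every cell that binds ryanodine receptors and TGF-beta type I receptors, and mice without it develop heart muscle that fails to compact. It had 242 FPKM in replicate 1 and 237 FPKM in replicate 2, rank 168 of all symbols (chromosome 2, 151368219 to 151387428, plus strand). Fkbp1b encodes FKBP12.6, which binds the cardiac ryanodine receptor with preference, and had 4.37 and 3.99 FPKM (chromosome 12, 4839981 to 4848401, minus strand). The ratio of Fkbp1a to Fkbp1b was 55.4 in replicate 1 and 59.5 in replicate 2, and Fkbp1a held 98.2% and 98.3% of the FPKM of the pair.

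Both genes encode proteins of 108 residues from 4 coding exons whose coding lengths are the same, 37, 48, 113 and 126 bases. Exon 3 of each is printed because the ratio rests on reads being placed on the right gene. Fkbp1a exon 3 lies at chr2:151557386-151557498 (plus strand) and Fkbp1b exon 3 at chr12:4834739-4834851 (minus strand), both on GRCm38 from GENCODE M21, with capitals at the bases where the genes differ.
Fkbp1a: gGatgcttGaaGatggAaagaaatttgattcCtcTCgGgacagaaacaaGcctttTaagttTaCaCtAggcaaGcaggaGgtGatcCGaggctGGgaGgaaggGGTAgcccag
Fkbp1b: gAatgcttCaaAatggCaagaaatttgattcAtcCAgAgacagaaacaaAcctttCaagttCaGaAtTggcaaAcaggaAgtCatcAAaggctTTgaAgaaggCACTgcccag
In this exon 26 of 113 bases differed, and the longest identical run was 14 bases. Over the whole coding sequence 74.7% of 324 bases were identical, again with no identical run over 14 bases. Fkbp1a also has processed pseudogenes: its closest matches in GENCODE M21 were Fkbp1a-ps1, 94.2% identical over 328 bases, and Fkbp1a-ps2, 90.5% identical over 253 bases. Neither was a row of the deposited tables.

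Among 17 genes of the FKBP family, Fkbp1a was the highest. Fkbp3, a nuclear member, followed at 127 ± 5.36 FPKM, Fkbp9, of the endoplasmic reticulum, at 93.8 ± 2.29 FPKM, the steroid receptor co-chaperone Fkbp4 at 86.5 ± 1.62 FPKM and the mitochondrial and reticulum protein Fkbp8 at 86.0 ± 1.84 FPKM. In both libraries 15 of the 17 reached 1 FPKM, beside 36.2% of all symbols and 52.4% of protein-coding symbols. Aipl1, at 0.434 ± 0.0462 FPKM, and Fkbp6, a meiosis gene at 0.0274 ± 0.000280 FPKM, did not.

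IP3 receptors are encoded by 3 genes, of which Itpr1 is best known from neurons and smooth muscle, Itpr2 from adult heart muscle cells and Itpr3 from epithelial and secretory cells. Itpr1 had 7.57 FPKM in replicate 1 and 7.06 FPKM in replicate 2 (chromosome 6, 108163112 to 108501103, plus strand). Itpr2 had 1.65 and 1.40 FPKM (chromosome 6, 146056821 to 146450745, minus strand). Itpr3 had 1.37 and 1.31 FPKM (chromosome 17, 27194249 to 27259168, plus strand). Itpr1 was thus well above the other genes in both libraries, while Itpr2 and Itpr3 lay close together near the detection limit.

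Itpr1 held 71.5% of the summed IP3 receptor FPKM in replicate 1 and 72.3% in replicate 2. Itpr2 held 15.6% and 14.3%, and Itpr3 12.9% and 13.4%. Itpr2 exceeded Itpr3 by 0.11 ± 0.08 on the log2(FPKM + 1) scale, within the spread of 0.66 for genes from 1 to 2 FPKM. The lower level of Itpr2 than Itpr1 (log2 ratio -1.72 ± 0.04) and of Itpr3 than Itpr1 (-1.83 ± 0.04) was beyond it.

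The longest stretch that any pair of the 3 coding sequences shares is printed, with the same limit on what is known of the reads. Coding identity was 71.8% between Itpr2 and Itpr1, 70.2% between Itpr3 and Itpr1 and 71.5% between Itpr2 and Itpr3, and the longest identical run of any pair was 32 bases, shared by Itpr2 (exon 48, chr6:146187472-146187533, minus strand) and Itpr3 (exon 49, chr17:27116204-27116265, plus strand). It is in capitals with 15 bases on each side, from GENCODE M21 on GRCm38.
Itpr2: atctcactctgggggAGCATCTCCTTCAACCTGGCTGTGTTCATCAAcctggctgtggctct
Itpr3: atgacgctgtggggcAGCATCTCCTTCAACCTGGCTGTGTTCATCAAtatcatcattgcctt

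Within the bounds of the Itpr2 row lies the pseudogene Gm15720 on the same strand, at 3.70 FPKM in replicate 1 and 2.88 FPKM in replicate 2, both above Itpr2 itself. It spans 282 bases, and whether reads were divided between the rows is not given in the sources used here. The antisense gene inside Itpr3, 1700062I23Rik, was at or near 0 in both libraries, and Gm17706 inside Itpr2 was listed at 0. Of the genes antisense to Itpr1 in GENCODE M21, Gm44040 and Gm44101, neither was a row of the tables.

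Markers of cell types other than heart muscle that use these receptors are given beside them. Those of smooth muscle summed to 595 FPKM in replicate 1 and 615 FPKM in replicate 2. Acta2 alone gave 385 and 400 FPKM of these sums, while Myh11, the mature smooth muscle myosin, was at 0.496 FPKM. The sums therefore do not settle whether smooth muscle cells were present. Endothelial markers summed to 185 and 178 FPKM. Neuron markers reached 1 FPKM for 2 of 5 genes and summed to 6.27 and 6.74 FPKM, so neurons cannot be called present. Any part of such cells in the Itpr1, Itpr2 and Itpr3 levels was not tested.

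The release channels were compared across families. Ryr2, the cardiac ryanodine receptor, had 8.54 FPKM in replicate 1 and 6.79 FPKM in replicate 2. Itpr1 stood at 0.887 of Ryr2 in replicate 1 and 1.04 in replicate 2, so the libraries put a different gene on top, and the mean log2 ratio of -0.05 ± 0.14 was within the spread. Of the summed FPKM of ryanodine and IP3 receptors, Itpr1 held 35.6% in replicate 1 and 39.2% in replicate 2, and Ryr2 40.1% and 37.7%. Ryr3 held 10.03% and 7.91%, while the skeletal muscle gene Ryr1 held 0.111% and 0.151%. Itpr2 and Itpr3 were lower than Ryr2 beyond the spread, at 0.194 and 0.160 of it in replicate 1 and 0.206 and 0.193 in replicate 2.

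**Figure D2:**
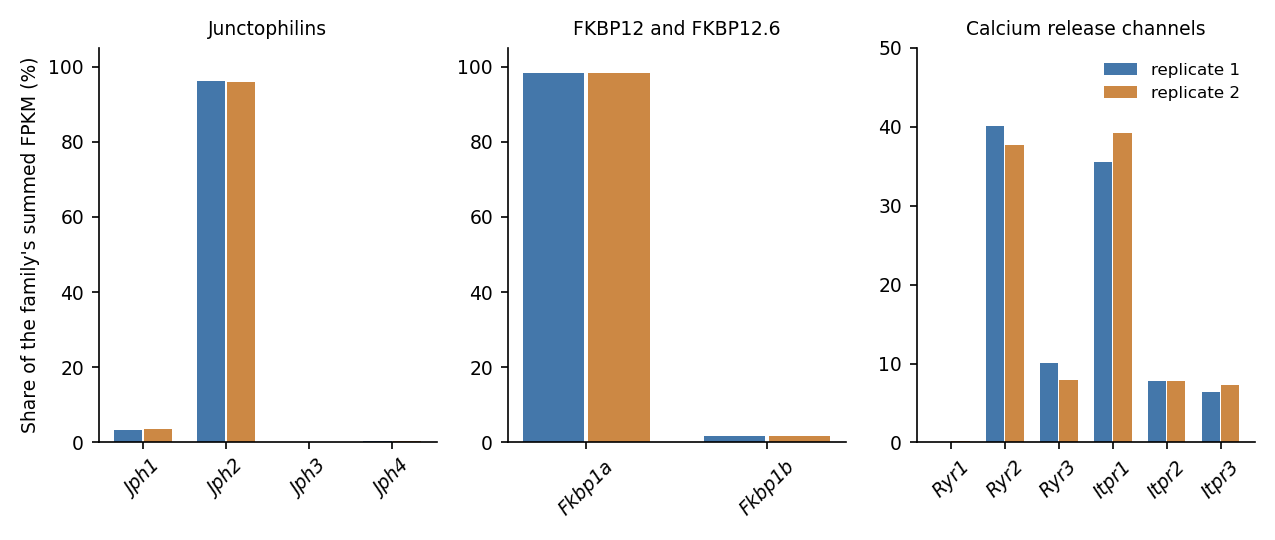
Share of each gene in the summed FPKM of its family, in percent, for replicate 1 and replicate 2. Jph2 and Fkbp1a each hold over 95% of their families, while in the right panel, whose axis ends at 50%, Ryr2 (40.1% and 37.7%) and Itpr1 (35.6% and 39.2%) hold similar shares.

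The other members were set against Ryr2 as well. Jph2 was 7.60 times Ryr2 in replicate 1 and 9.33 times in replicate 2, and it was 8.84 and 9.77 times Cacna1c, the pore of the voltage-gated channel on the opposite membrane. Fkbp1a was 28.4 and 35.0 times Ryr2. Fkbp1b, which binds that receptor with preference, was at 0.512 of Ryr2 in replicate 1 and 0.587 in replicate 2. These are ratios of RNA per length and carry no information on protein. Whether FPKM is even across transcripts as unlike in length as these was not tested. Of 19 pairs compared, 15 differed beyond the spread, and the 4 that did not were Itpr2 with Itpr3, Hrc with Trdn, Asph with Casq2, and Itpr1 with Ryr2.

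The full order of levels was Fkbp1a, Jph2, Asph, Hrc, Trdn, Itpr1, Fkbp1b, Jph1, Itpr2, Itpr3. It was the same in each library. In every neighbouring pair the libraries did not overlap, but 6 of the 9 steps passed the spread. The 3 steps that did not were from Hrc to Trdn, from Jph1 to Itpr2, a log2 difference of 0.39, and from Itpr2 to Itpr3.

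Other genes of the dyad gave a context for these levels. Of 26 dyad and transverse tubule genes, 25 reached 1 FPKM in both libraries, beside 36.2% of all symbols and 52.4% of protein-coding symbols. Their median was 19.4 FPKM, beside 10.2 FPKM over detected symbols. The highest were the pump inhibitor Pln at 372 ± 5.34 FPKM, Atp2a2 at 276 ± 24.4 FPKM, the store lumen protein Srl at 119 ± 8.67 FPKM, the exchanger Slc8a1 at 112 ± 10.5 FPKM and the calcium-binding protein Sri at 68.4 ± 0.145 FPKM. Jph2 at 64.1 ± 1.09 FPKM came just under Sri. The gene below the limit was Cmya5, a large dyad protein, with 1.49 FPKM in replicate 1 and 0.993 FPKM in replicate 2. Bin1, known for shaping transverse tubules, was at 5.89 ± 0.339 FPKM, under the median of the list. Cav3 at 32.5 FPKM and Tcap at 44.2 FPKM, of the same list, lay above that median.

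Genes that make or remove IP3, or act on its receptors, were detected for 22 of 26, beside 36.2% of all symbols and 52.4% of protein-coding symbols. Their median was 6.24 FPKM, beside 1.68 FPKM over protein-coding symbols and 10.2 FPKM over detected symbols. Highest were Inpp5a, a phosphatase that removes IP3, at 52.4 ± 1.26 FPKM, and the IP3 receptor binding protein Ahcyl1 at 36.4 ± 0.744 FPKM. Then came the G protein subunit Gna11 at 25.5 ± 1.15 FPKM, the phospholipase Plcg1 at 21.8 ± 0.154 FPKM and Erp44, a reticulum protein that binds Itpr1, at 20.2 ± 0.599 FPKM. Itpr1, at 7.31 ± 0.361 FPKM, was below all 5 of these. The members under the limit were Lrmp at 0.548 ± 0.0109, Plcb2, a phospholipase of blood cells, at 0.301 ± 0.0309, Gna14 at 0.139 ± 0.0289 and Tespa1, a T cell gene listed at 0 in replicate 1 and 0.0612 in replicate 2, all in FPKM.

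**Figure D3:**
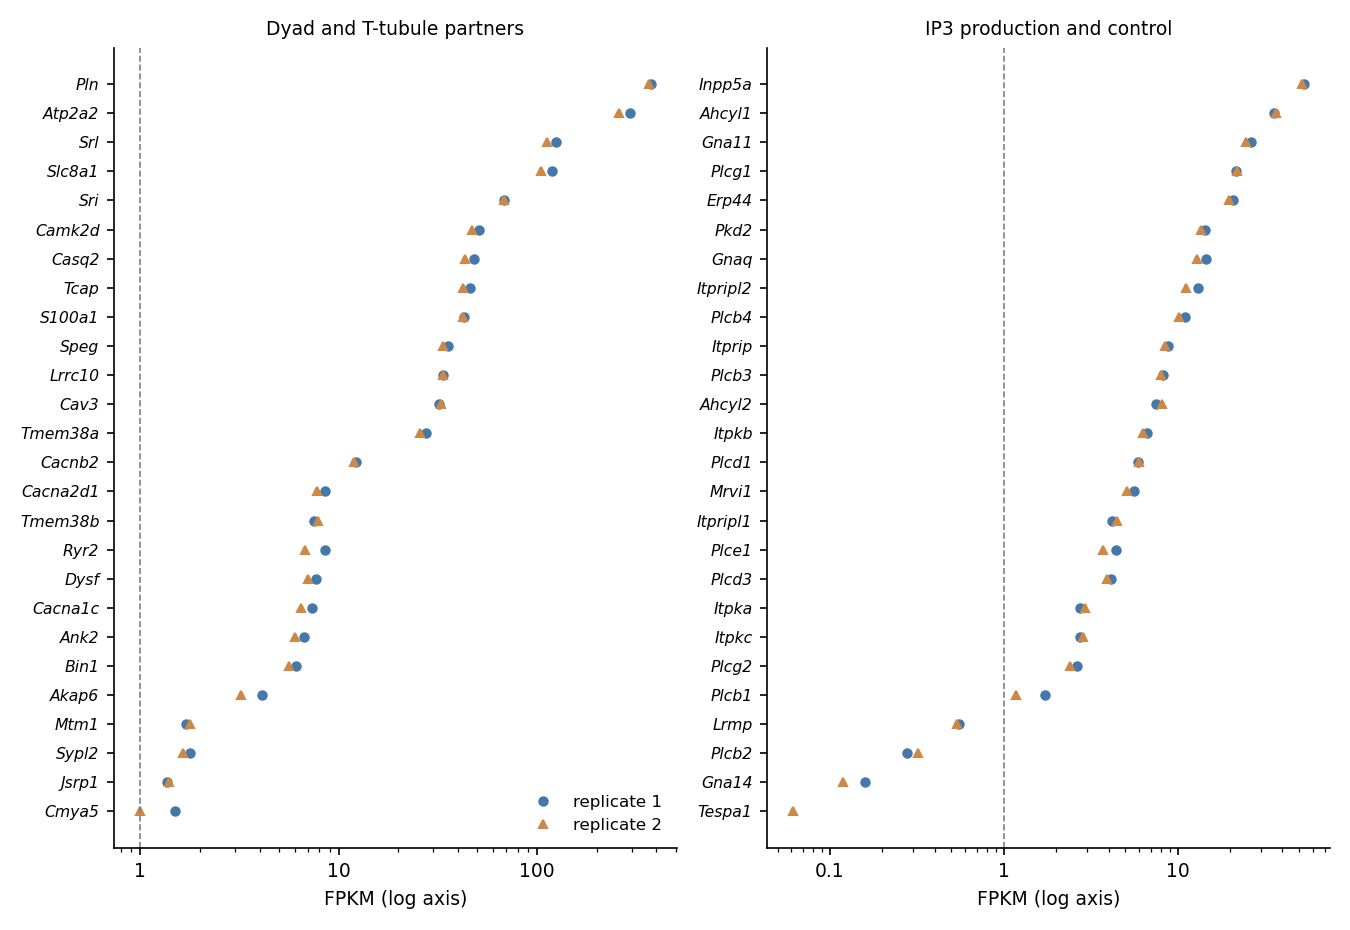
FPKM on a log axis of the dyad and transverse tubule genes (left) and of the genes of IP3 production and control (right), with circles for replicate 1, triangles for replicate 2 and a dashed line at 1 FPKM. Pln leads the left panel at 372 FPKM and Inpp5a the right at 52.4 FPKM, and Tespa1 has no circle because replicate 1 lists it at 0.

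Store-operated calcium entry, which refills the store after IP3-driven release, was represented by 6 of 7 genes at 1 FPKM or more. That count stands beside 36.2% of all symbols and 52.4% of protein-coding symbols. Saraf, listed under its older symbol Tmem66, was at 40.8 ± 0.366 FPKM. The channel genes Orai1 and Orai3 were at 9.88 ± 0.787 and 6.05 ± 0.403 FPKM, and the store sensor Stim2 and Stimate (listed as Tmem110) at 8.33 ± 0.262 and 6.66 ± 0.586 FPKM. Orai2, at 0.915 ± 0.0883 FPKM, was below the limit.

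The libraries gave closely matching levels for the 10 genes. The log2(FPKM + 1) difference, replicate 2 minus replicate 1, lay between -0.15 for Itpr2 and 0.02 for Jph1. None of the 10 passed the spread at its level, a limit that by its definition leaves 5.02% of genes averaging at least 1 FPKM outside. Of the 6 that averaged at least 5 FPKM, none was 2-fold apart, as 0.347% of all such genes were. The gene closest to its limit was Asph, which fell by 0.14 on the log2 scale in replicate 2 against a limit of 0.17.

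**Figure D4:**
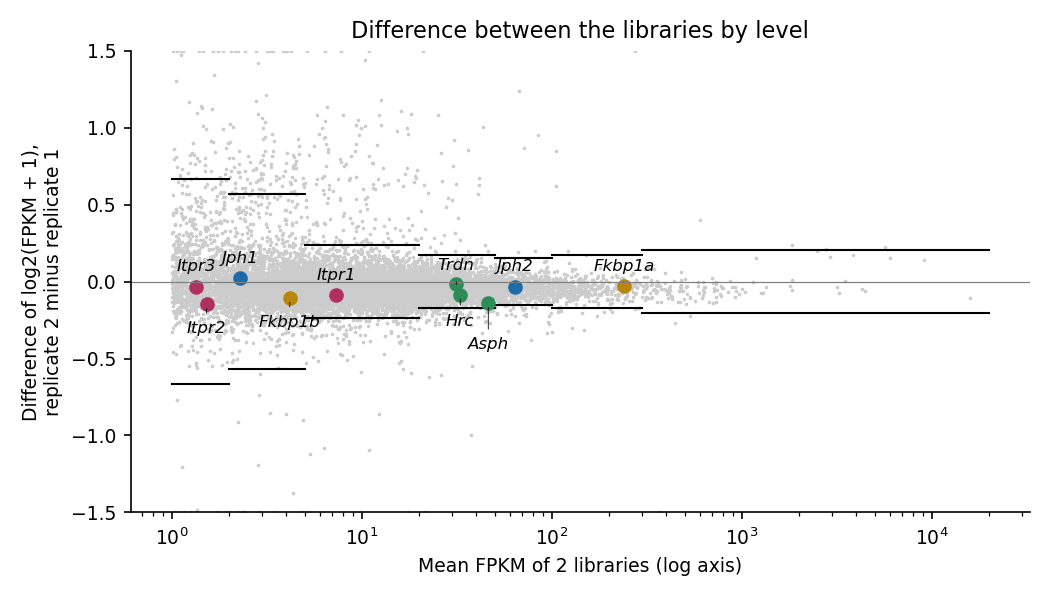
Difference of log2(FPKM + 1), replicate 2 minus replicate 1, against the mean FPKM on a log axis, for genes averaging at least 1 FPKM (grey; values beyond 1.5 are drawn at the edge) and the 10 genes (coloured by role). Black lines mark the 95th percentile of the size of the difference in 7 bands of FPKM, and all 10 genes lie inside them.

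In 9 of the 10 genes replicate 2 was the lower library, Jph1 being the exception, and 66.6% of all genes averaging at least 1 FPKM were lower in that library. Among protein-coding genes averaging at least 5 FPKM, the difference moved with the longest annotated transcript, but only among the longer ones. In the bands up to 4000 bases the median difference lay between -0.03 and -0.02, with no order by length. It was -0.02 for the 1771 genes from 2000 to 3000 bases and -0.04 for the 1362 from 4000 to 5000 bases. For the 1213 from 5000 to 7000 bases it was -0.07, for the 548 from 7000 to 10000 bases -0.10 and for the 152 above 10000 bases -0.12. Replicate 2 was lower for 66.0% of genes from 2000 to 3000 bases and for 95.4% of those above 10000 bases.

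The IP3 receptor transcripts are among the long ones, at 9870 bases for Itpr1, 11679 for Itpr2 and 8990 for Itpr3. Relative to the median of their length band, Itpr1 differed by 0.01, Itpr2 by -0.02 and Itpr3 by 0.07 on the log2 scale. With that median taken off, 5 of the 10 genes were lower in replicate 2 and 5 higher. These medians rest on genes averaging at least 5 FPKM, a level that Itpr2, Itpr3, Jph1 and Fkbp1b did not reach. For such low genes the pseudocount of 1 FPKM shrinks the difference, so like was not set against like. The Itpr2 difference was -0.15 with that pseudocount and -0.23 with a pseudocount of 0.1 FPKM. Ryr2, whose coding sequence alone has 14898 bases, fell by 0.29 on the log2(FPKM + 1) scale in replicate 2, beyond the 0.24 limit for genes from 5 to 20 FPKM, while Itpr1 fell by 0.09. The part of transcript length in these differences was not tested.

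**Figure D5:**
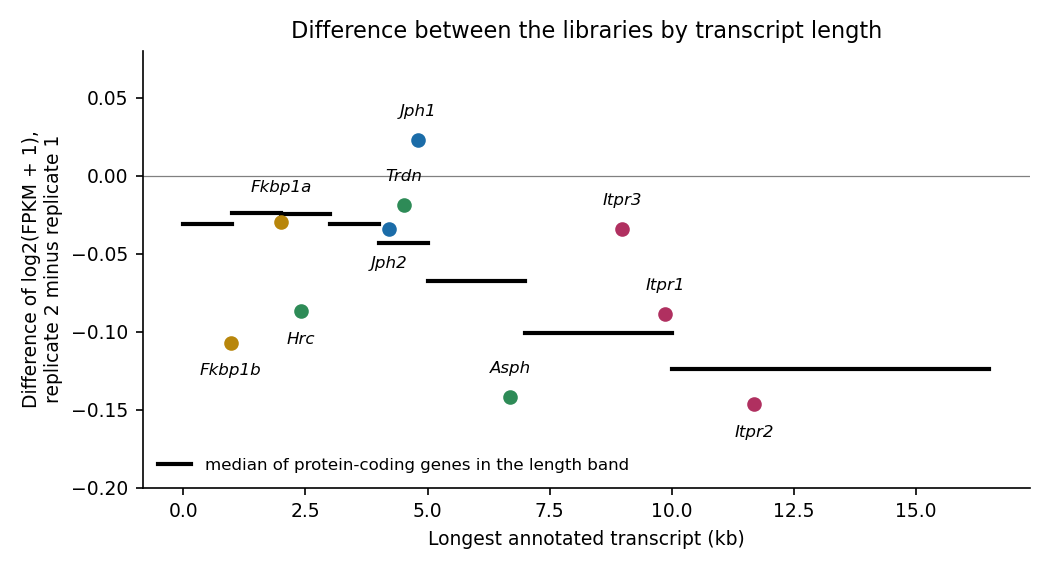
Difference of log2(FPKM + 1), replicate 2 minus replicate 1, against the longest annotated transcript in kilobases for the 10 genes (points, coloured by role), with black bars at the median of protein-coding genes in each length band. The bars lie between -0.03 and -0.02 up to 4000 bases, then step down to -0.12 above 10 kilobases (a band with no upper edge). Itpr2 lies close to its bar there, while Asph, Hrc and Fkbp1b lie below theirs and Jph1 and Itpr3 above. The bars rest on genes averaging at least 5 FPKM, a level that Itpr2, Itpr3, Jph1 and Fkbp1b did not reach.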

How the data were processed

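Per the labels' protocols, total RNA from 2 heart samples at embryonic day 12.5 was extracted with Trizol and made into TruSeq RNA v2 libraries selected by size. The authors deposited 1 table per library with an FPKM value per gene. The submitters' processing notes name Cufflinks, Cuffnorm and GSNAP, with the builds mm9 and hg19. Not given in the sources used here are the annotation, the strand setting and how multiply matching reads were treated. Gene positions are on mm9, as the last gene of chromosome 1 ends at 197054592. GENCODE M21 (GRCm38) gave transcript lengths and coding sequences only.

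Rows of a symbol were summed. Log2 values had a pseudocount of 1 FPKM added, which understates differences of low genes. Detected means 1 FPKM or more in both libraries. Copies of the members were sought with BLAST 2.17.0 at 98% identity over 75 bases, and for Fkbp1a at 90%. The matches at 98% were all genes that overlap a member. Python 3.11.15, NumPy 2.4.6, pandas 2.3.3, Biopython 1.88 and Matplotlib 3.10.9 were used. Only the 2-fold rule and the length-band medians were tested on simulated data. With FPKM alone, depth and counting intervals are unknown. Members and lists were chosen with earlier results of these data known. All members, their paralogues, genes of the compared pairs, genes that overlap or copy a member, and the 5 highest and up to 4 lowest undetected genes of each list are named. Bin1, Cav3 and Tcap were named after their values were seen. No likeness of pattern was computed with 1 group.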

Additional observations from a re-analysis of the deposited data

How the results depend on the processing

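No paired analysis was possible because there is a single group. With a pseudocount of 0.1 FPKM or with either library alone, the order of the 10 genes was unchanged. The same 3 neighbouring steps and the same 4 of 19 pairs stayed within the spread. For a single library the limits still came from both libraries, and the rule of no overlap was always met. Those runs are therefore no independent check. Each library alone gave a median member level of 19.1 to 19.6 FPKM. At a limit of 5 FPKM, which 25.6% of all symbols reached, 6 members were detected in place of 10 and 3 paralogues in place of 5. At 0.5 FPKM all 10 members were, which follows from their detection at 1 FPKM. Scaling to the sum without 48 globin and mitochondrially encoded symbols (14.4% of summed FPKM in replicate 1, 15.4% in replicate 2) raised the median member level to 22.8 FPKM. Weighting FPKM by the longest transcript, which stands for fragments instead of molecules, gave Jph2 95.6% of the junctophilins, Itpr1 70.8% of the IP3 receptors and Fkbp1a 99.2% of its pair. Among all release channels it gave Itpr1 28.1% and Ryr2 49.7%, beside 37.4% and 38.9% by FPKM. No member passed the between-library spread under any of 5 alternatives, of which the length-centred difference and the protein-coding background were chosen after seeing the data. The length-centred alternative centred the members only and kept the limit from uncentred differences, so like was not set against like. Rescaling by the median ratio of 0.972 left 6 members lower in replicate 2 in place of 9. No near-identical copy of Fkbp1a was a row of the tables, so summing copies gave no value. Levels near 1 FPKM (Itpr2, Itpr3) carry the widest spread.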
